A study of Mus musculus with 4 samples.

Results

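The genes described here encode the proteins of homologous recombination, of the Fanconi pathway and of the replication checkpoint. They were taken from a list of 35 symbols, and every probe set of the array whose annotation gave 1 of these symbols and no other was used. Probe sets were found for 33 of the 35 genes, 69 probe sets of 45037 in all. No probe set carried the symbol Xrcc2 or Claspn alone, and these genes are not analysed here. Where a gene had several probe sets, the brightest by its 4-array mean stood for it. Its other probe sets are described for some genes only.

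The cells came from a single mouse hybridoma, a line of B cell and myeloma origin that secretes antibody. Class switching, the exchange of the heavy chain constant region, was spontaneous and frequent in culture in subclones H23 and H27, and infrequent in subclones L25 and L27, per the labels. All 4 subclones grew in the same medium with 10% fetal calf serum, no treatment or engineered allele is named for any of them, and total RNA of each was hybridized to 1 array. Each subclone is a single clone, so a difference between classes is a difference between 2 clones and 2 clones. The p-values below set that difference against the spread between arrays of a class, which limma moderates over all probe sets. They do not reach beyond these 4 arrays.

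Values are log2 intensities. The median probe set lay at 5.25 to 5.30, and with 2 arrays a class the small number of arrays sets the precision. None of 8 measured plasma cell markers lay below the median probe set, but they did not stand still: limma called Tnfrsf17 (-0.71 ± 0.13, adjusted p = 0.0454) and Xbp1 (-0.71 ± 0.13, adjusted p = 0.0461) lower in high switching subclones, and 0 of the 8 higher. Prdm1 had the largest difference and went the other way, with 0.74 ± 0.20 (limma adjusted p = 0.119). Of the 8 markers, 3 were below 0 and 5 above, with a median of 0.03. The summed intensities of the 8 were 52757 and 57680 in H23 and H27, against 57512 and 61227 in L25 and L27. Of 7 T cell markers limma called 0, with Cd3g at an unadjusted p under 0.05 (-0.53 ± 0.17), and their sums were 899 and 1069 in H23 and H27, against 1191 and 1225 in L25 and L27. Of 7 myeloid markers limma called Itgam lower (-1.38 ± 0.16, adjusted p = 0.0151). Cd68 went the other way, with 0.54 ± 0.14 (limma adjusted p = 0.109). Of the 7, 4 had both high switching arrays above both low switching arrays, and 1 had both below. Over all genes these shares were 26.5% and 24.9%, and 3 of the 7 markers lay below the median probe set. The median difference of the 7 was 0.12. The myeloid sums, to which Cd68 gave the most, were 1640 and 1503 in H23 and H27, against 1260 and 1420 in L25 and L27. Of 7 fibroblast markers limma called Lum higher (1.21 ± 0.18, adjusted p = 0.0272). Lum was dim, at 5.77 and 5.28 in H23 and H27, against 4.38 and 4.26 in L25 and L27. The fibroblast sums were 263 and 253 in H23 and H27, against 218 and 204 in L25 and L27, and 3 of the 7 lay below the median probe set. Of 5 mature B cell markers limma called 0, with 0 at an unadjusted p under 0.05, and 3 lay below the median probe set. The part of any such cells in the results below was not tested.

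Homologous recombination repairs a broken chromosome by copying the intact sister. BRCA1 and BARD1, a paired ubiquitin ligase, and PALB2 bring BRCA2 to the resected end, and the motor protein RAD54 drives strand invasion. The Fanconi proteins recognise crosslinked DNA, a core complex with the ubiquitin ligase FANCL then modifies FANCD2 and FANCI, and nucleases and helicases such as MUS81, EME1 and BLM process the joined molecules. The kinase ATR, its partner ATRIP, and the clamp made of RAD9, HUS1 and RAD1 sense stalled forks and activate CHK1, while CHK2 acts below ATM at double-strand breaks. Many of these genes are transcribed most in S phase, under E2F factors, and class switching itself joins breaks chiefly by end joining.

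Chek2, Rad54l and Mus81 are the members with a probe set past the test between the classes, described below, and the sequence before their start sites is shown to give the regulatory context of these genes. The windows are the 250 bases before the start site in RefSeq, on build GRCm38.p6, and 28 of the 33 measured genes had one. Capitals mark TTTCCCGC, TTTGGCGC (letters of E2F sites), TTTGAA (the cell cycle element called CHR) and CCAAT, on either strand. These motifs do not overlap each other in the sequences shown.
Chek2, chr5:110839733-110839982, plus strand: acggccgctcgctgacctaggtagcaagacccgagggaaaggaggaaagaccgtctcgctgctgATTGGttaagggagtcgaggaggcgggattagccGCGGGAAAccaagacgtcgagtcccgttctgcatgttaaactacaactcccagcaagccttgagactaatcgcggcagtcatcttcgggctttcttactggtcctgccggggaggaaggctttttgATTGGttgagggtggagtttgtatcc
Rad54l, chr4:116123691-116123940, minus strand: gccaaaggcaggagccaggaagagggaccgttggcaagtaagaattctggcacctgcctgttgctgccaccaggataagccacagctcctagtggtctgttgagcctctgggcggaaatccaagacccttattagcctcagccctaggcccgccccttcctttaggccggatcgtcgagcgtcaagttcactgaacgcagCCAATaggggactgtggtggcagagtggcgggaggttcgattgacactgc
Mus81, chr19:5488380-5488629, minus strand: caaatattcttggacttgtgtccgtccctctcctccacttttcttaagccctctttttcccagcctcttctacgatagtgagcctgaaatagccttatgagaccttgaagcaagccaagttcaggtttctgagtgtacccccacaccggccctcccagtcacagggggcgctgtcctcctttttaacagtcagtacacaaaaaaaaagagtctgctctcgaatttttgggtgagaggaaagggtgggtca

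The Chek2 window holds TTTCCCGC once, starting 152 bases before the start site, and CCAAT at 186 and 26 bases before it. Rad54l holds CCAAT once, 50 bases before its start, and Mus81 holds none of the 4 motifs in this window. Of the 28 genes, 4 held TTTCCCGC (14.3%), against 0.895% of all 32851 promoter windows and 1.86% of the 8729 windows of genes whose log2 intensity averaged 7 or more. CCAAT was found for 12 of the 28 genes (42.9%), against 33.8% and 36.1% of windows, and TTTGAA for 2 (7.14%), against 16.0% and 10.4%. TTTGGCGC was found for 0 of the 28, against 0.417% and 0.928% of windows. The other members with TTTCCCGC are Brca2, Fancg and Bard1, and 60 bases around each match are shown with the match in capitals.
Brca2, chr5:150522427-150522486, plus strand: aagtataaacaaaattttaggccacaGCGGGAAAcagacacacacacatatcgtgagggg
Fancg, chr4:43010320-43010379, minus strand: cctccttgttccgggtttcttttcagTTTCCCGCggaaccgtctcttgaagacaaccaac
Bard1, chr1:71103148-71103207, minus strand: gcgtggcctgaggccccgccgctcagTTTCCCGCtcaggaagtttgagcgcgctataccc

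The 4 genes with this motif had log2 differences between high and low switching subclones of -0.69 for Chek2, -0.28 for Brca2, -0.27 for Fancg and -0.10 for Bard1. The members without it ran from -0.73 to 0.21, and the match is a description of the sequence only.

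High switching subclones had slightly lower levels of most of these genes. The difference was below 0 for 28 of 33 genes (84.8%), against 48.1% of all genes and 55.2% of genes with a mean of at least 7. It had a median of -0.23 (log2), against a median of 0.01 over all 18193 genes and -0.05 over the 8222 genes with a mean of at least 7. The test passed for 2 genes, Chek2 and Rad54l, both lower in high switching subclones, and for 0 in the higher direction (limma, Benjamini-Hochberg adjusted p under 0.05). Over all genes 2.78% were called lower and 2.04% higher, and among genes with a mean of at least 7 these shares were 4.40% and 3.24%. An unadjusted p under 0.05 by limma was found for 9 of the 33, against 22.9% of all genes, so the members lie near the background in both counts. By probe set, 3 of 69 were called, all lower, against 2.10% of all probe sets called lower and 3.59% called in either direction. The difference was below 0 for 49 of the 69, against 47.4% of all probe sets. For 24 of the 33 genes every probe set was below 0, and for 3 none was, while 12 genes had a single probe set.

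Both high switching arrays read below both low switching arrays for 22 of the 33 genes, and above both for 2, the helicase genes Fancm and Wrn. These shares compare with 24.9% lower and 26.5% higher over all genes. Among genes with a mean of at least 7 the lower share was 37.1%, and it held for 21 of the 30 members that bright. The arrays overlapped for the other 9 genes, which were Brca1, Bard1, Rad51ap1, Rad52, Fancd2, Eme1, Atrip, Rad9a and Chek1. With 2 arrays in each class the smallest two-sided p of an exact permutation test is 0.333, and each call draws on limma's pooling of variances over probe sets.

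**Figure D1:**
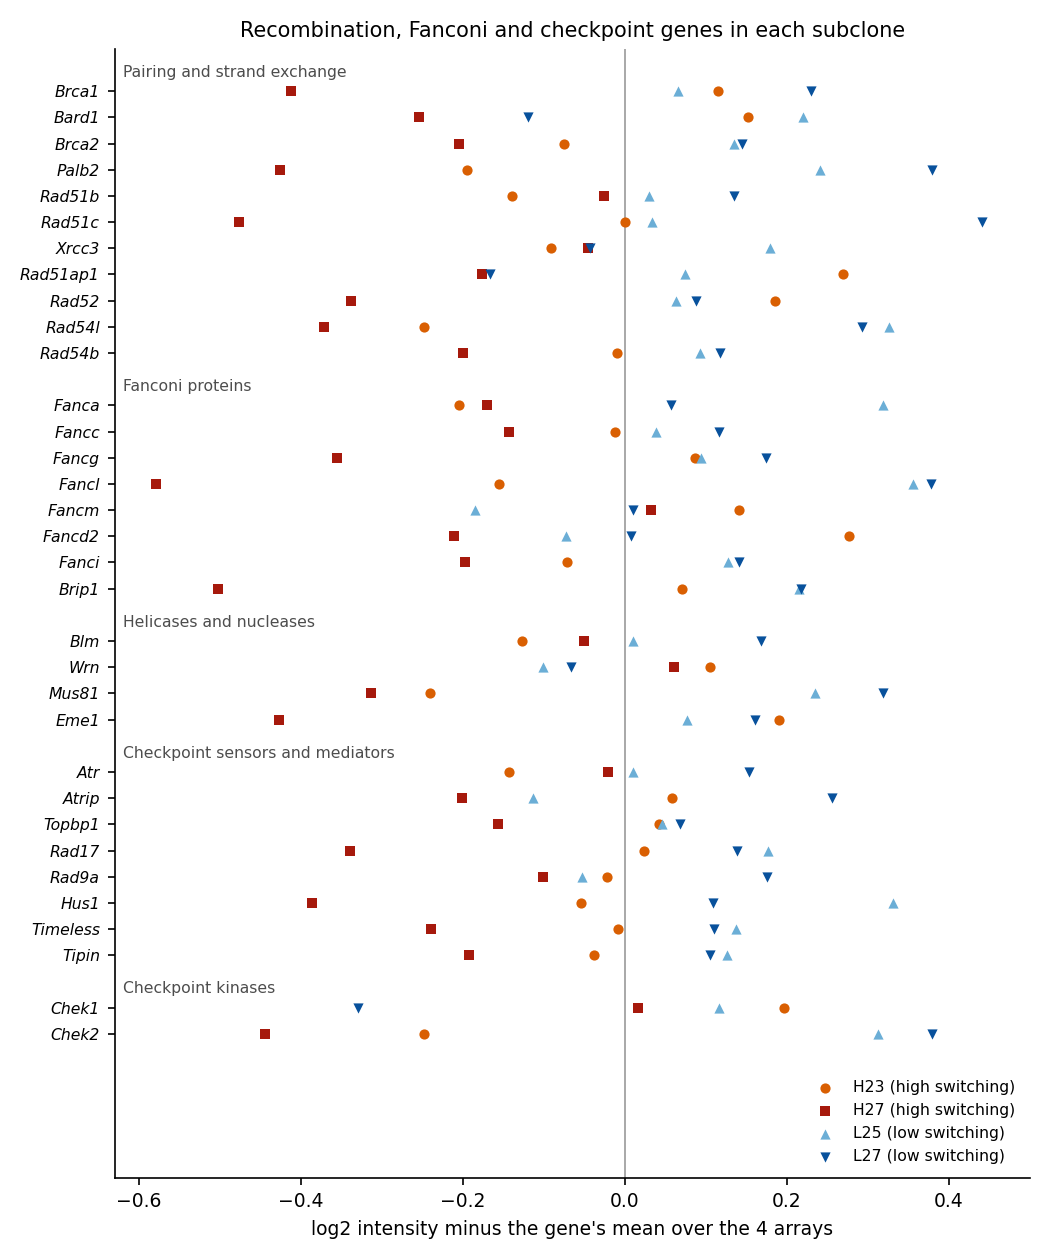
Log2 intensity of each of the 33 genes in each subclone, minus the mean of that gene over the 4 arrays (horizontal axis), with genes grouped by role. H27 is the lowest of the 4 arrays for 25 genes, against 26.4% of all genes and 32.8% of genes with a mean of at least 7. L27 is the highest for 18, against 21.5% of all genes.

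Of the checkpoint kinase genes, Chek2 passed and Chek1 did not. Chek2 read 8.78 in H23 and 8.58 in H27, against 9.34 in L25 and 9.41 in L27. Both high switching subclones were below both low switching ones, and its single probe set fell by 0.69 on the log2 scale (SE 0.12, 95% interval -0.98 to -0.40, limma adjusted p = 0.0398), which makes it 1.62-fold lower. Chek1, the kinase that acts below ATR, read 9.64 and 9.46 in H23 and H27, against 9.56 and 9.11 in L25 and L27. Its arrays overlapped, and its difference was 0.21 ± 0.17 (SE), with an interval from -0.21 to 0.63. Of its 5 probe sets, 4 were above 0. The second brightest gave 0.12, and the others averaged 4.42 to 5.00, dimmer than the median probe set.

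Genes of pairing and strand exchange were below 0 in 10 of 11 cases, with 1 call. Rad54l read 8.63 in H23 and 8.50 in H27, against 9.20 in L25 and 9.17 in L27. The subclones of a class lay close together and the classes stood apart, with a fall of 0.62 ± 0.11 (SE) that is 1.54-fold (limma adjusted p = 0.0418). The other 3 Rad54l probe sets read between 4.08 and 5.69 on the 4 arrays. They differed by -0.19 to -0.26, the same direction, and did not pass. Its relative Rad54b, also a motor protein, had a difference of -0.21 ± 0.12 and did not pass.

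Palb2, which links BRCA1 to BRCA2, read 8.09 in H23 and 7.86 in H27, against 8.53 in L25 and 8.67 in L27. The classes did not overlap, but the difference of -0.62 ± 0.13 just missed the threshold (limma adjusted p = 0.0614). Brca2 read 8.80 and 8.67 in H23 and H27, and 9.01 and 9.02 in L25 and L27. Its arrays also stood apart, by less than those of Palb2 (-0.28 ± 0.11, limma adjusted p = 0.248).

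Rad51c, which acts in strand exchange, read 8.89 in H23 and 8.41 in H27, against 8.92 in L25 and 9.33 in L27. Here H23 lay beside L25, and H27 and L27 were far apart, so the difference of -0.48 ± 0.21 was no larger than the gap of 0.48 between the high switching subclones (limma adjusted p = 0.297). Its second probe set gave -0.35. Rad51b and Xrcc3 differed by -0.17 ± 0.11 and -0.14 ± 0.12, and the second Xrcc3 probe set by -0.35 (limma adjusted p = 0.154).

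Brca1 read 9.75 in H23 and 9.22 in H27, against 9.70 in L25 and 9.86 in L27. Only H27 was low, and H23 lay between the low switching subclones. The difference was -0.30 ± 0.19 (limma adjusted p = 0.49), and 3 of 4 Brca1 probe sets were below 0. Its partner Bard1 differed by -0.10 ± 0.18, and Rad52, an annealing protein, by -0.15 ± 0.18. The second Rad52 probe set went the other way, with 0.16. Rad51ap1, which stimulates strand invasion, was the member of this group above 0, with 0.09 ± 0.18 and all 4 probe sets between 0.01 and 0.13.

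**Figure D2:**
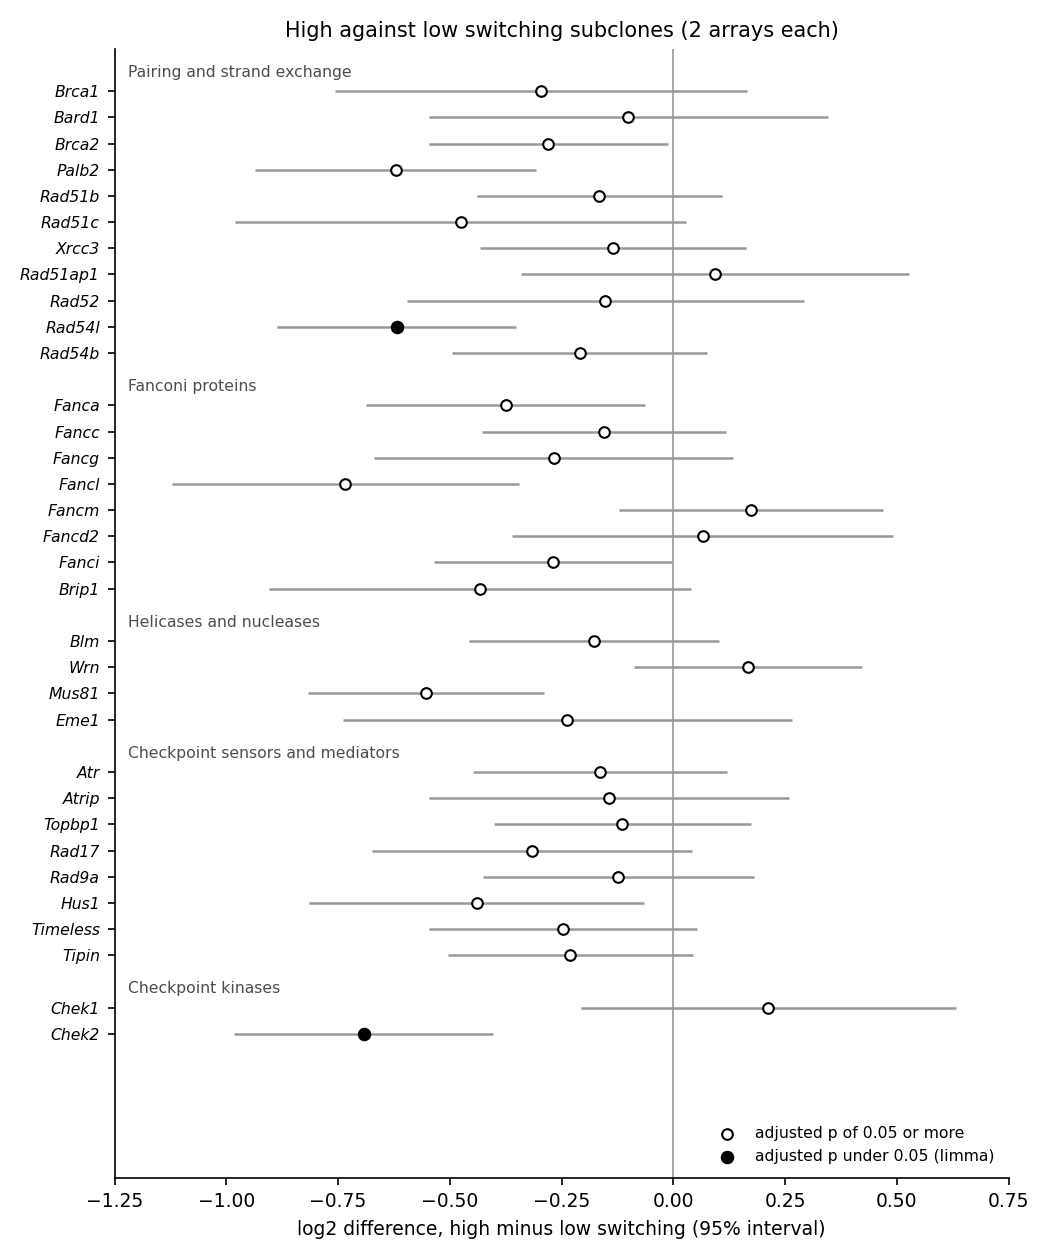
Log2 difference between high and low switching subclones for the 33 genes (points) with 95% intervals from limma (lines), 2 arrays for each class. Filled points are Chek2 and Rad54l, which passed the adjusted threshold of 0.05, and most other points lie left of 0 with intervals that reach it.

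Of the Fanconi genes, 6 of 8 were below 0 and 0 passed, while 3 had an unadjusted p under 0.05 by limma. Fancl, the ubiquitin ligase of the core complex, read 9.07 in H23 and 8.64 in H27, against 9.58 in L25 and 9.60 in L27. Both high switching subclones were lower, H27 more so, and the difference of -0.73 ± 0.16 was the largest of any member but missed the threshold (limma adjusted p = 0.0692). The second Fancl probe set read 3.96 and 3.74 in H23 and H27, against 3.97 and 3.84 in L25 and L27, which is dimmer than the median probe set, and gave -0.05.

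The core complex genes Fanca, Fancg and Fancc had differences of -0.38 ± 0.13, -0.27 ± 0.16 and -0.15 ± 0.11. The other Fancc probe sets gave 0.13 and -0.003. The substrates of the complex did not move alike, with -0.27 ± 0.11 for Fanci and 0.07 ± 0.18 for Fancd2, a contrast that was not tested. Fancm, the translocase that anchors the complex, had 0.17 ± 0.12 on the probe set that stands for it and 0.36 and 0.31 on its others. The probe set with 0.31 averaged 4.41, dimmer than the median probe set. Brip1, the helicase that binds BRCA1, read 8.29 in H23 and 7.71 in H27, against 8.43 in both L25 and L27. H27 alone was far from the rest, and the difference of -0.43 ± 0.19 had a limma adjusted p of 0.31.

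Among the helicases and nucleases, Mus81, the catalytic subunit of a nuclease that cuts branched DNA, was lower on both of its probe sets. The dimmer one read 7.97 in H23 and 8.06 in H27, against 8.68 in L25 and 8.77 in L27. The classes stood apart and the subclones of a class did not, with a fall of 0.71 ± 0.11 (SE) that passed (limma adjusted p = 0.0308). The brighter one, which stands for the gene, read 8.48 and 8.41 in H23 and H27, against 8.96 and 9.04 in L25 and L27. Its difference of -0.55 ± 0.11 lay just outside the threshold (limma adjusted p = 0.0534), so Mus81 is called by probe set and not by gene.

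Eme1, the partner subunit of MUS81, read 9.32 in H23 and 8.70 in H27, against 9.21 in L25 and 9.29 in L27. H27 was the low array and H23 the highest, and the difference was -0.24 ± 0.21. Blm and Wrn, RecQ helicases, differed by -0.18 ± 0.11 and 0.17 ± 0.10, and all 3 Wrn probe sets were above 0.

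The checkpoint sensors and mediators were below 0 for all 8 measured genes, and 0 passed, with 1 at an unadjusted p under 0.05 by limma. That gene is Hus1, a subunit of the clamp, which read 10.21 in H23 and 9.88 in H27, against 10.59 in L25 and 10.37 in L27. The classes did not overlap, and the difference was -0.44 ± 0.15 (limma adjusted p = 0.20). The clamp loader subunit Rad17 differed by -0.32 ± 0.15, and the fork protection partners Timeless and Tipin by -0.25 ± 0.12 and -0.23 ± 0.11. Atr differed by -0.16 ± 0.12, and its other probe sets gave 0.19 and -0.04. Atrip, Rad9a and the ATR activator Topbp1 had differences between -0.14 and -0.11.

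The intervals bound what the 4 arrays could show. The widest, for Rad51c, ran from -0.98 to 0.03, and the 95% interval lay wholly below 0 for 9 of the 33 genes and wholly above it for 0. The intervals are not adjusted, and these 9 are the genes with an unadjusted p under 0.05 by limma, found for 22.9% of all genes. Among genes with a mean of at least 7 such a p was found for 3048 of 8222, against 9 of 30 members. Of the 9, only Chek2 and Rad54l passed after adjustment. For the other 24 genes the interval reached 0, and the direction was not resolved at this number of arrays.

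Within the high switching class most members read lower in H27. H27 read below H23 for 28 of 33 genes (84.8%), with a median of -0.20, against 52.8% and -0.01 over all genes. L27 read below L25 for 10 of 33 (30.3%), with a median of 0.02, against 50.4% and 0.00. Over genes with a mean of at least 7, the share was 56.3% for H27 below H23 and 46.6% for L27 below L25. The medians there were -0.04 and 0.01. Each subclone had a single array, so no test was made. By probe set, H27 was below H23 for 53 of 69.

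**Figure D3:**
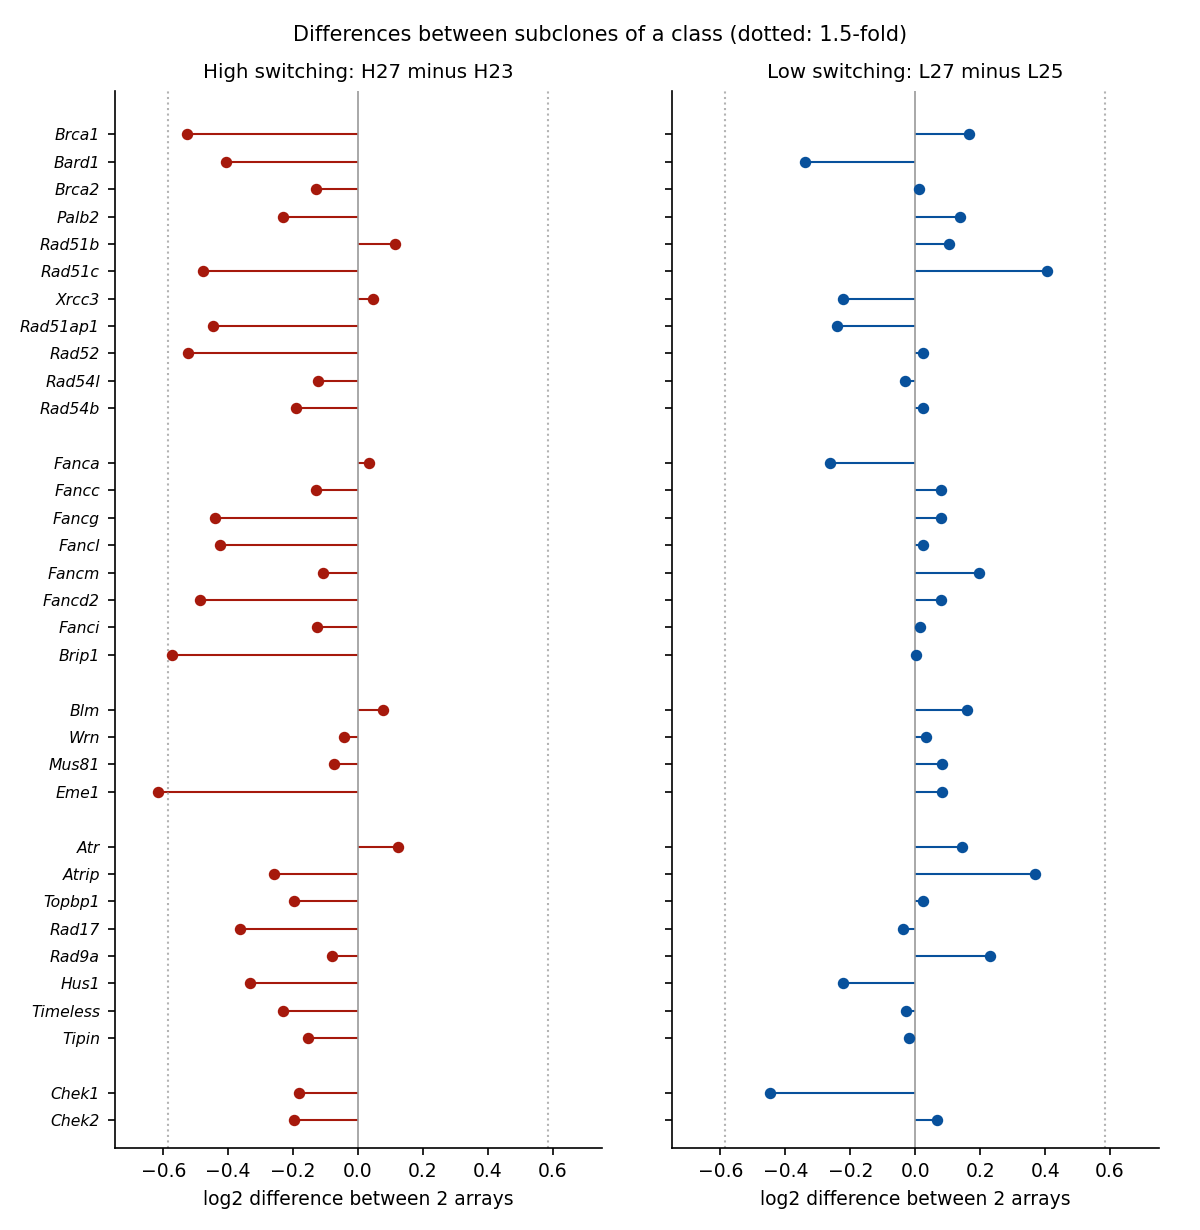
Log2 difference of H27 minus H23 (left) and L27 minus L25 (right) for the 33 genes, 1 array for each subclone, with dotted lines at 1.5-fold. On the left 28 genes lie below 0 and Eme1 lies past the line, and on the right no gene does.

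The gap between H27 and H23 was widest for Eme1 (-0.62), Brip1 (-0.57), Brca1 (-0.53) and Rad52 (-0.52). It was narrow for the genes with calls, at -0.20 for Chek2, -0.12 for Rad54l and -0.07 for the brighter Mus81 probe set. A narrow gap is partly built into a call, because limma sets the difference between classes against the spread within them. The 4 genes above were in turn named for their wide gaps, so this contrast follows in part from the selection. The members held genes low in both high switching subclones, such as Chek2, Rad54l and Mus81, and genes low in H27 alone, such as Brca1, with H23 between the low switching arrays, and Eme1, with H23 above both. For 12 of the 33 genes the gap between H27 and H23 was larger than the difference between the classes. The probe sets of a gene with a wide gap read alike for Rad51ap1, whose 4 probe sets ran from -0.45 to -0.61 for H27 minus H23, while the second Rad52 probe set gave 0.14.

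A gap of at least 1.5-fold between H27 and H23 was found for 1 member gene, Eme1, against 2.52% of all genes, or 1.60% with H27 the lower one. Between L27 and L25 it was found for 0 of 33, against 2.24%. At 2-fold both counts were 0, against 0.269% for H27 and H23 and 0.407% for L27 and L25. The largest gaps there were -0.45 for Chek1 and 0.41 for Rad51c.

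Leaving out H27 brought the median of the 33 differences to -0.13, and leaving out H23 to -0.33. Without L25 it was -0.24, and without L27 it was -0.23. Without H27 the difference was 0.07 for Eme1, 0.11 for Rad52, -0.03 for Brca1 and -0.15 for Brip1. It was -0.59 for Chek2, -0.56 for Rad54l and -0.52 for Mus81. The calls of Chek2 and Rad54l ended whichever array was left out, with limma adjusted p-values of 0.0778 to 0.157 for Chek2 and 0.0999 to 0.19 for Rad54l. A fit with 3 arrays takes the lone subclone of a class to vary like the others.

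**Figure D4:**
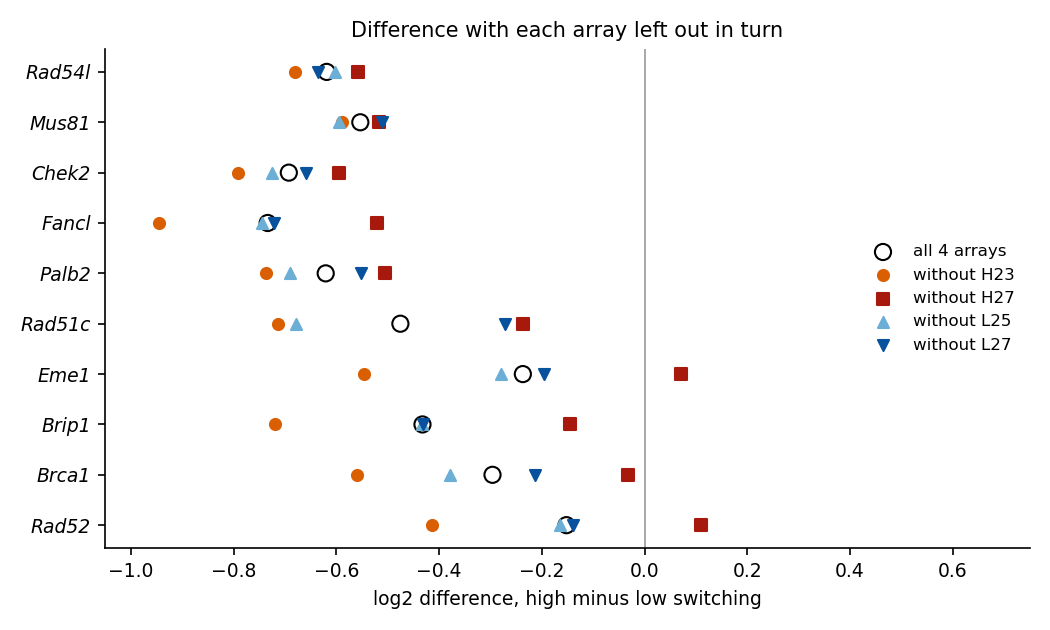
Log2 difference between high and low switching subclones for 10 genes with all 4 arrays (open circles) and with each array left out (filled symbols). The symbols for Chek2, Rad54l, Mus81, Fancl and Palb2 all lie well left of 0, while those for Eme1 and Rad52 cross 0 without H27.

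Other genes of S phase were lower in H27 too. Of 19 measured genes of replication and nucleotide supply, H27 read below H23 for 19, with a median of -0.32, and L27 below L25 for 15, with a median of -0.06. Over all genes these shares were 52.8% and 50.4%. The differences of the 19 between the classes had a median of -0.36, 13 were below 0, and limma called 0, with 8 at an unadjusted p under 0.05. Below 0 were 48.1% of all genes and 55.2% of genes with a mean of at least 7. Such a p was found for 22.9% of all genes and for 3048 of 8222 with that mean. The largest differences of the 19 were for Mcm7, a subunit of the replicative helicase (-0.56 ± 0.15), Uhrf1 (-0.49 ± 0.15) and Pcna, the sliding clamp (-0.49 ± 0.15). Bulk RNA cannot tell fewer cells in S phase from less transcript per cell, and the part of cell cycle position in the members' differences was not tested.

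Position on the chromosome also moved with some members. Chek2 lies on chromosome 5, whose 535 genes of this brightness (mean 7 or more) differed by a median of -0.31, and the 20 such genes on each side of it had -0.17. Brca2 lies on the same chromosome, and its difference of -0.28 was close to the -0.25 of its neighbours. Rad54l lies on chromosome 4, with a median of -0.13 over 512 genes and of -0.24 for its neighbours. For Mus81, on chromosome 19, the neighbours had -0.18 and the chromosome 0.09. After the neighbours' median was subtracted from each array, Chek2 had a difference of -0.46 (limma adjusted p = 0.0749), Rad54l -0.37 (0.122) and Mus81 -0.38 (0.112), and none of them passed. In the same fit Fancl passed, with -0.64 (limma adjusted p = 0.0486), as did Fanca, on chromosome 8, where the neighbours had 0.24. Over the 33 genes, 28 had a difference below that of their neighbours, a count for which no share over all genes was computed.

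The hybridization controls, RNA added to each sample before hybridization, averaged 10.49 in H23 and 10.98 in H27, against 11.07 in L25 and 10.45 in L27. This level crosses the classes. With it as a block, which leaves fewer degrees of freedom, 0 member genes passed (limma adjusted p = 0.106 for Chek2 and 0.12 for Rad54l), and the differences themselves were unchanged by construction.

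The rest of the pathways gave 1 call. Of 31 further recombination genes, limma called 1 lower and 0 higher, against 2.78% and 2.04% of all genes. Of the 31, 21 were below 0, against 48.1% of all genes, and the median was -0.04. The call was Nbn, a subunit of the complex that binds DNA ends, which read 7.32 in H23 and 7.33 in H27, against 8.34 in L25 and 8.21 in L27. The classes stood apart by 0.95 ± 0.11 (limma adjusted p = 0.0151). Its partners in the complex did not share this, with -0.19 ± 0.17 for Rad50 and 0.35 ± 0.10 for Mre11a (limma adjusted p = 0.145), and the contrast between them was not tested. Zswim7, a recombination cofactor, and Babam2, a subunit of a BRCA1 complex, had -0.56 ± 0.18 and -0.53 ± 0.11 and did not pass.

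Of 14 further Fanconi genes limma called 0, with 4 at an unadjusted p under 0.05, and 11 were below 0. Over all genes 22.9% had such a p and 48.1% were below 0. Among genes with a mean of at least 7, 3048 of 8222 had such a p and 55.2% were below 0. Fancf, an adaptor of the core complex, read 7.93 in H23 and 7.59 in H27, against 8.70 in L25 and 8.43 in L27. Its arrays did not overlap, and its difference of -0.81 ± 0.16 missed the threshold (limma adjusted p = 0.0570). Fance, which binds FANCD2, had -0.69 ± 0.21, and Usp1, the enzyme that removes ubiquitin from FANCD2, had -0.51 ± 0.12. The fourth gene at that p, the ubiquitin ligase gene Rfwd3, went the other way, with 0.44 ± 0.11 (limma adjusted p = 0.101).

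Of 13 further checkpoint genes limma called 0, with 5 at an unadjusted p under 0.05, and 10 were below 0. The shares over all genes were again 22.9% and 48.1%, and with a mean of at least 7 they were 3048 of 8222 and 55.2%. Etaa1, a second activator of ATR, had -0.55 ± 0.16, Rad9b -0.54 ± 0.17 and the kinase gene Wee1, which restrains entry into mitosis, -0.48 ± 0.11. Rad18, a ubiquitin ligase gene and also among the 5, went the other way with 0.44 ± 0.14 (limma adjusted p = 0.173), while Rhno1 had -0.32. Atm, the kinase above CHK2, had a difference of 0.08 ± 0.12.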

How the data were processed

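The authors deposited 1 column of linear-scale intensities for each array, made with RMA per the submitters' processing notes (background correction, normalization between arrays and summary of probes to probe sets; version and genome build not given in the sources used here). RMA shrinks differences of dim probe sets. The tests had been planned on log2 values, so log2 was taken first. The array holds 45101 probe sets; the 64 control probe sets were dropped and the other 45037 tested, unfiltered. The platform annotation of 2016 gave 34945 of them 1 symbol, 932 several and 9160 none, and 34741 matched RefSeq's gene table (GRCm38.p6), which served for names and chromosomes. Only probe sets with 1 symbol are named, so 2 probe sets shared with Rad54b and 1 shared with Atrip were not used.

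High minus low switching was tested with limma 3.58.1 (lmFit, eBayes, two-sided) in R 4.3.3, adjusted over all probe sets, with a threshold of 0.05. The SE is limma's moderated standard error. The fitting step was tested on simulated data. Replicates 1 and 2 are H23 and H27, and L25 and L27, numbered in accession order. The members, lists, motifs and alternatives were chosen with earlier results of these data known. The rule for named genes gave full values to members with a probe set past the threshold, the 6 largest differences between classes and the 4 largest within a class, and up to 3 genes of each further list, all ranked by size; Hus1, Brca2, Chek1, Rad50, Mre11a, Atm, Rfwd3, Rad18, Rhno1 and the named cell type markers were added after their values were seen. Python 3.11.15 with matplotlib 3.10.9 made the figures.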

Additional observations from a re-analysis of the deposited data

How the results depend on the processing

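The median difference of the 33 genes stayed below 0 under each of 13 alternatives, between -0.33 without H23 and -0.13 without H27. It could not move from -0.23 with a variance trend, a mean of at least 6 or the hybridization block. These leave the differences of the members as they were. The count of member genes called lower was 2 with all arrays and 0 when any one array was left out; by probe set it was 3 and then 0, and for further pathway genes 1 and then 0, so none of these calls outlasts the loss of an array, where fewer arrays leave fewer degrees of freedom. Both high switching arrays lay above both low switching arrays for 2 genes, and for 2 to 7 when an array was left out. With a variance trend, with or without robust estimation, 1 member gene (Chek2) and 3 further genes passed. With a mean of at least 6, which tests fewer probe sets, 4 member genes (Chek2, Mus81, Palb2 and Rad54l), 5 member probe sets and 3 further genes passed. With a gene's probe sets averaged, 3 member genes (Chek2, Mus81 and Palb2) and 2 further genes passed, and Rad54l did not (-0.33, limma adjusted p = 0.109). The hybridization level as a block gave 0 member genes, 0 member probe sets and 0 further genes. Genes higher in both high switching arrays numbered 1 without probe sets that may match several transcripts and 0 with neighbours subtracted. Genes lower in both, 22 in the main fit, numbered 18 with quantile normalization again and 19 with cyclic loess. They numbered 19 without such probe sets, 19 with a gene's probe sets averaged and 20 with neighbours subtracted. At 2-fold, 0 members differed between H27 and H23. Rad52 changed direction without such probe sets (0.16), with its probe sets averaged (0.00504) and without H27, and Eme1 without H27; over the arrays left out Rad52 ran from -0.41 to 0.11 and Eme1 from -0.55 to 0.0716, and neither was called in any of these. Quantile normalization again and cyclic loess kept both calls. Where no cause is given it was not tested. No paired analysis was possible because the labels number no replicates across the classes, and the subclone names are not pairs.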
